A study of Homo sapiens with 6 samples.

Results

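The ATP-binding cassette (ABC) drug efflux transporters were examined in BaF3-T315I cells as 8 genes taken by name, namely Abcb1a, Abcb1b, Abcc1, Abcc3, Abcc4, Abcc5, Abcc10 and Abcg2. All 8 were found among the 22413 genes of the deposited table. The table holds FPKM values (fragments scaled to gene length and to all mapped fragments) of 6 libraries, 3 from control cells and 3 from cells given I13 at 1.1 µM. The I13 exposure lasted 48 h, a time taken from the text of the study. I13 is a histone deacetylase (HDAC) inhibitor. Both groups are murine BaF3 cells stably transfected with T315I-mutated BCR-ABL, the form of the kinase that resists imatinib. The vehicle and the time of the controls, and whether the line is 1 clone, are not given in the sources used here. Nothing in the labels says whether the 3 samples of a group are separate cultures, so the p-values measure only the spread between these samples.

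ABC exporters are membrane proteins that bind and split ATP and use its energy to move substrates across the membrane. Those of the ABCB1, ABCC and ABCG2 type carry many anticancer drugs, among them tyrosine kinase inhibitors, out of cells and are best known for multidrug resistance. In mice P-glycoprotein, the product of one human gene ABCB1, is encoded by the closely related genes Abcb1a and Abcb1b. The comparison asked at what level each transporter gene was expressed in these cells and whether that level differed after I13.

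The whole series gave the following frame. Whole fragments were recovered from the FPKM values, and the totals per library ran from 16762119 to 17722950 fragments. Of the 7 genes listed as markers of an interleukin-3-dependent haematopoietic line, 6 were in the table and all 6 had a mean FPKM of at least 0.5. Their summed FPKM was 482 to 930 in the controls and 962 to 1710 after I13. Among the markers of the B lineage, Cd79a and Cd79b were expressed while Vpreb1, Igll1, Ebf1 and Pax5 stayed below 0.5 FPKM. The 3 T cell markers and 1 fibroblast marker in the table reached summed values of no more than 0.153 and 0.130 FPKM in any library. The summed FPKM of 4 macrophage markers was 23.0 to 46.4 in the controls and 53.0 to 87.2 after I13, although Csf1r stayed at or below 0.0702. That of 4 erythroid markers was 7.62 to 11 in the controls and 15.7 to 23.5 after I13. That of 4 mast cell markers was 195 to 234 and 147 to 216, nearly all of it Gata2. The part of these marker levels in the results on the efflux genes was not tested.

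The 8 genes fell into 5 that were expressed and 3 that were close to 0. Abcc1, Abcc4, Abcc5, Abcb1b and Abcc10 averaged 0.5 FPKM or more over the 6 samples, the limit set for the test. Abcc3, Abcg2 and Abcb1a did not reach it. Because FPKM is a level per length of gene, the genes can be set side by side. In the controls the order of the mean levels was Abcc1, Abcc4, Abcc5, Abcb1b and Abcc10, and no neighbours among these 5 overlapped. After I13 the order of the means was the same, but the ranges of Abcc1 and Abcc4 overlapped, as did those of Abcc5 and Abcb1b. Abcc10, the lowest of the 5, was 34.8 times the mean of Abcc3 in the controls and 52.3 times that mean after I13. The ranges of Abcc3 and Abcg2 overlapped in both groups.

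A change after I13 was not detected for any of the 5 expressed genes. With limma on log2(FPKM + 0.1) over 12163 genes, 0 of the 5 had a Benjamini-Hochberg adjusted p under 0.05, with or without an absolute log2 fold change of 0.58, the thresholds of the study. Over all genes tested, 0.0411% passed, by the p alone and by both thresholds. The study itself reported many more genes past its thresholds, with a test that its methods do not name. At an unadjusted p below 0.05 there were also 0 of the 5, against 18.6% of all genes tested, and voom on the recovered fragments likewise gave 0 by either p, where 0.0493% of all genes passed the adjusted and 19.4% the unadjusted one. Control and I13 values overlapped in all 5 genes, whereas they did not overlap in 25.2% of all genes tested. The log2 fold changes of 4 genes were above 0 and that of 1 was below it, with a median of 0.15 beside -0.0053 for all genes tested. On the log2(FPKM + 0.1) scale a fold change comes out too small where the level is low. In bulk RNA, fewer cells with a transcript and less of it per cell cannot be told apart.

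**Figure D1:**
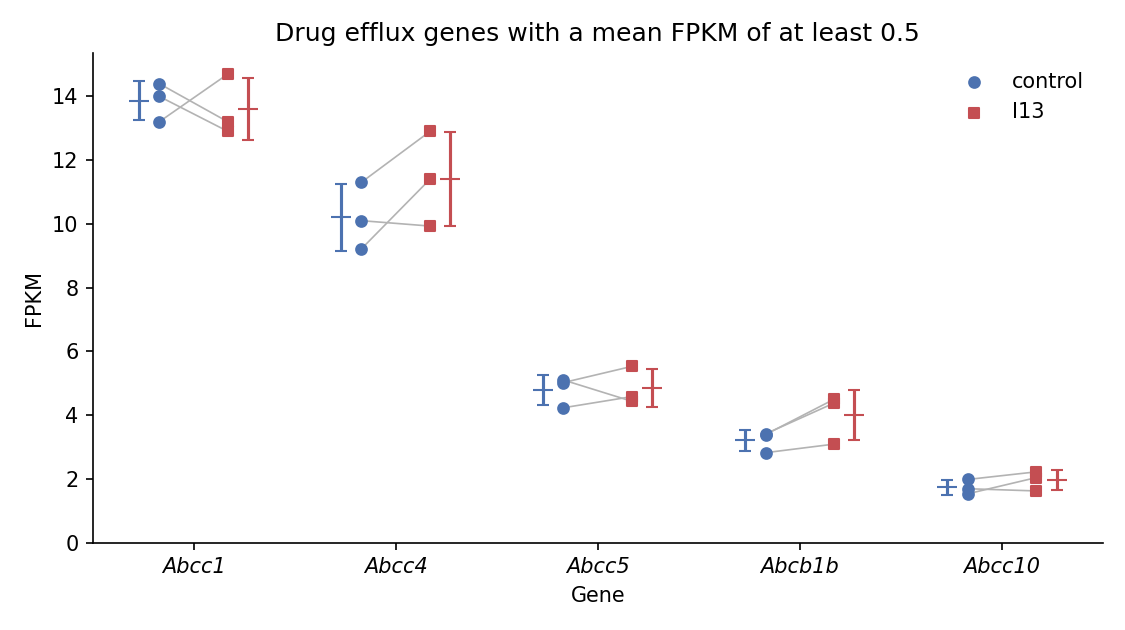
FPKM of the 5 expressed efflux genes in each sample, with control samples as blue circles, I13 samples as red squares, grey lines joining samples with the same replicate number, and bars for the mean and SD of 3 samples. The 2 groups overlap for every gene, and Abcc1 and Abcc4 lie well above the other 3.

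Abcc1 encodes multidrug resistance protein 1, an exporter of glutathione conjugates and of many drugs, and was the most abundant of the 8. Control replicates 1, 2 and 3 had 14.4, 13.2 and 14.0 FPKM, while the I13 replicates had 13.2, 14.7 and 12.9 FPKM. The highest value of all was an I13 sample and so was the lowest. The mean was 13.9 ± 0.638 FPKM in the controls and 13.6 ± 0.977 FPKM after I13 (SD, n = 3 each). By limma its log2 fold change was -0.03 ± 0.10 (standard error) with an adjusted p of 0.894 and a 95% confidence interval from -0.25 to 0.19. A change of 0.58 in either direction lay outside this interval. The gene rested on 2790 to 3159 fragments per library, for which counting alone gives a coefficient of variation of 1.82% in the controls, against 4.6% observed. Of all listed genes, 82.2% had a lower mean FPKM.

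Abcc4 encodes multidrug resistance protein 4, an exporter of cyclic nucleotides and nucleoside analogues, and came next. Its values were 9.21, 11.3 and 10.1 FPKM in the control replicates and 11.4, 12.9 and 9.93 FPKM in the I13 replicates. I13 replicates 1 and 2 were above every control, but I13 replicate 3 lay between control replicates 1 and 3. By limma the log2 fold change was 0.15 ± 0.13 (standard error) with an adjusted p of 0.563 and a 95% confidence interval from -0.16 to 0.46. The means were 10.2 ± 1.07 and 11.4 ± 1.48 FPKM (SD, n = 3 each), on 935 to 1238 fragments per library.

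Abcc5 encodes multidrug resistance protein 5, also an exporter of cyclic nucleotides. The control replicates had 4.23, 5.02 and 5.10 FPKM, while the I13 replicates had 4.58, 5.53 and 4.43 FPKM. Only I13 replicate 2 was above the control range. By limma the log2 fold change was 0.02 ± 0.14 (standard error) with an adjusted p of 0.967 and a 95% confidence interval from -0.30 to 0.33. Of all genes tested, 95.6% had a larger absolute change than Abcc5 and 91.7% had a larger one than Abcc1.

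Of the P-glycoprotein genes, Abcb1b was the one to which nearly all fragments were assigned in the table. Its control values were 3.39, 3.41 and 2.82 FPKM, and its I13 values were 4.50, 4.38 and 3.09 FPKM. I13 replicates 1 and 2 lay above every control, and I13 replicate 3 lay within the control range. The means were 3.21 ± 0.336 and 3.99 ± 0.782 FPKM (SD, n = 3 each), a ratio of 1.24. The log2 fold change of 0.29 was the largest of the 5 in size (limma, standard error 0.18 and adjusted p 0.41), and its 95% confidence interval ran from -0.12 to 0.71, which includes 0 and also the fold change threshold. Of all genes tested, 31.9% had a larger absolute change.

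Abcc10 encodes multidrug resistance protein 7, which is known to export taxanes. Its values were 1.98, 1.53 and 1.69 FPKM in the control replicates and 2.22, 2.04 and 1.62 FPKM in the I13 replicates. Again I13 replicates 1 and 2 were above every control while I13 replicate 3 lay within the control range. In limma it gave a log2 fold change of 0.17 ± 0.19 (standard error), an adjusted p of 0.664 and a 95% confidence interval from -0.27 to 0.61. This was the least deeply counted of the 5, with 185 to 268 fragments per library. For Abcb1b and Abcc10 the interval reached past the fold change threshold of 0.58, and for Abcc1, Abcc4 and Abcc5 it did not. In none of the 5 did it reach a log2 fold change of 1 in size, a doubling or its inverse.

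Samples that carry the same replicate number were treated as pairs in a second, blocked fit, although the labels state no pairs. There 1.89% of all genes passed both thresholds (1.36% higher and 0.526% lower), 2.99% passed the adjusted p and 28% had an unadjusted p below 0.05. Of the 5 efflux genes, 0 passed the adjusted p in this fit. Abcb1b alone had an unadjusted p below 0.05. It was higher in the I13 sample of every pair, by 0.40, 0.35 and 0.13 on the log2 scale for replicates 1, 2 and 3, a direction that 24.1% of all genes tested shared in all 3 pairs. With the block its standard error was 0.12, its unadjusted p was 0.0485 and its adjusted p from limma was 0.175. With voom and the block, 4.14% of all genes passed both thresholds, 12.4% the adjusted p and 30.8% the unadjusted p. The adjusted p of Abcb1b was 0.0802 there, and it was again the only one of the 5 below 0.05 by the unadjusted p. The pair differences of Abcc4 were 0.31, 0.18 and -0.03 and those of Abcc10 were 0.16, 0.40 and -0.05. Abcc5 gave 0.11, 0.14 and -0.20, and Abcc1 gave -0.13, 0.16 and -0.12, so in these 4 genes the pairs did not move the same way.

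**Figure D2:**
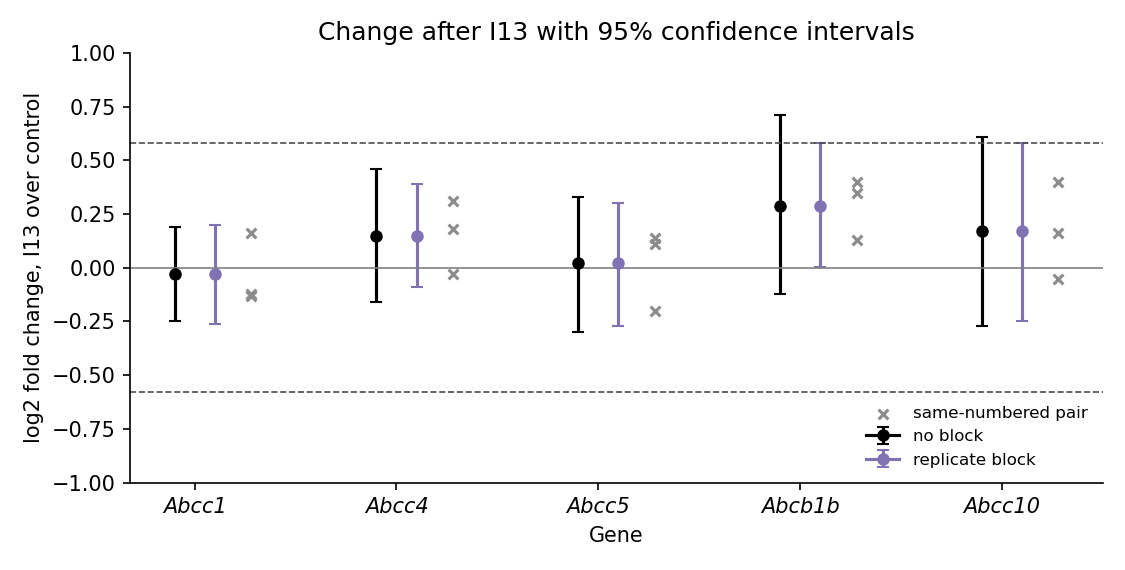
Log2 fold change of I13 over control for the 5 expressed efflux genes on the log2(FPKM + 0.1) scale, with 95% confidence intervals from limma without (black) and with (purple) the replicate block, and with the 3 same-numbered pairs as grey crosses. Dashed lines mark 0.58 in either direction, and without the block every interval includes 0.

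I13 replicate 3 was the lowest of the 3 I13 samples in all 5 genes, and I13 replicate 2 was the highest in 3 of them, Abcc1, Abcc4 and Abcc5. The median-ratio scaling factors of these libraries, computed over the genes tested, were 0.955 and 1.03, against 1.00 for I13 replicate 1. After division by these factors the groups still overlapped in all 5 genes. The coefficient of variation after I13 went from 7.19% to 4.14% for Abcc1, from 13% to 9.26% for Abcc4 and from 12.3% to 9.03% for Abcc5. For Abcb1b it went from 19.6% to 16.8% and the log2 fold change was then 0.31 (adjusted p = 0.333 from limma). For Abcc10 it went from 15.5% to 13.2%. In the controls, the coefficient of variation rose under the same scaling for Abcc1, from 4.6% to 7.34%, and for Abcc10, from 13% to 15.6%. It fell there for Abcb1b, Abcc4 and Abcc5.

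The shares of the 5 expressed genes in the efflux transcripts overlapped between the groups. The summed FPKM of the 8 genes was 33.3, 34.5 and 33.8 in the control replicates and 35.9, 39.7 and 32.0 in the I13 replicates, so the I13 samples lay on both sides of the control range. Abcc1 held 40.9% ± 2.58 of this sum in the controls and 38.0% ± 1.99 after I13 (SD, n = 3 each). Abcc4 held 30.1% ± 2.63 and 31.8% ± 0.732. Together these genes made up 68.4% to 71.3% of the sum in every library. Abcb1b held 9.47% ± 0.987 in the controls and 11.1% ± 1.43 after I13, and the 2 groups overlapped. The ratio of Abcc1 to Abcc4 within a library was 1.57, 1.16 and 1.38 in the control replicates and 1.15, 1.14 and 1.30 in the I13 replicates.

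**Figure D3:**
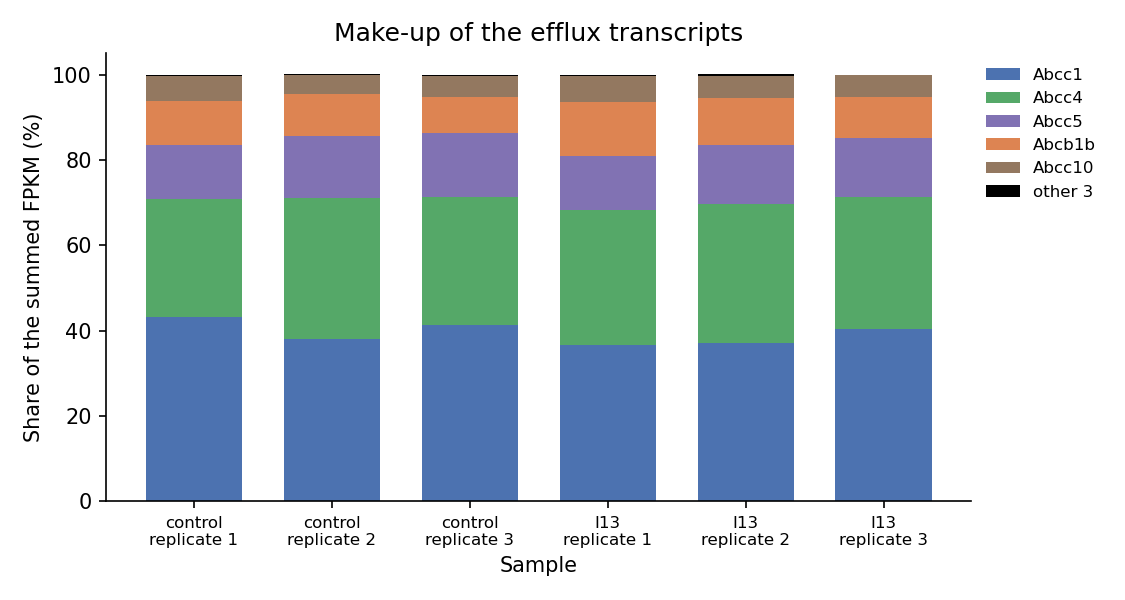
Share of each gene in the summed FPKM of the 8 efflux genes, in percent, for each of the 6 samples. Abcc1 and Abcc4 together take 68.4% to 71.3% of every bar, and Abcb1a, Abcc3 and Abcg2, drawn as 1 black band, take too little to be seen at this scale in most samples.

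The 3 remaining genes were described from their fragments, because a fold change of values this low depends on the pseudocount. Intervals given for them cover counting error only. Abcg2 encodes breast cancer resistance protein, an exporter of many drugs and of porphyrins that is typical of stem-like blood cells. It was represented by 12, 1 and 1 fragments in control replicates 1, 2 and 3 and by 5, 5 and 3 fragments in the I13 replicates. The highest FPKM in any library was 0.083, in control replicate 1. With 14 fragments in the controls and 13 after I13, the ratio of I13 to control per library total was 0.948 (95% exact interval 0.410 to 2.17). Control replicate 1 decided this value. Without it, a choice made after seeing the data, the ratio was 4.42 on 2 and 13 fragments (95% exact interval 1.00 to 40.3).

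Abcc3 encodes multidrug resistance protein 3, an exporter of bile salts and glucuronides best known from liver and gut. It had 4, 3 and 8 fragments in the control replicates and 4, 6 and 1 in the I13 replicates, between 0.01 and 0.0797 FPKM. The ratio of I13 to control was 0.749 (95% exact interval 0.311 to 1.74), so no difference was detectable at this depth.

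Abcb1a, the other P-glycoprotein gene, was listed at 0 in 5 of the 6 libraries and had 1 recovered fragment in I13 replicate 2. With a value in only 1 library the gene length used for the recovery is the shortest possible one, so this number is a minimum. A count of 0 allows up to 3 fragments in a library, which is 0.0309 to 0.0327 FPKM at that length. The partner Abcb1b had 3010 fragments over the 6 libraries. The genes are close copies, and fragments that match both could have been assigned to either or dropped, so the split between them is uncertain.

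**Figure D4:**
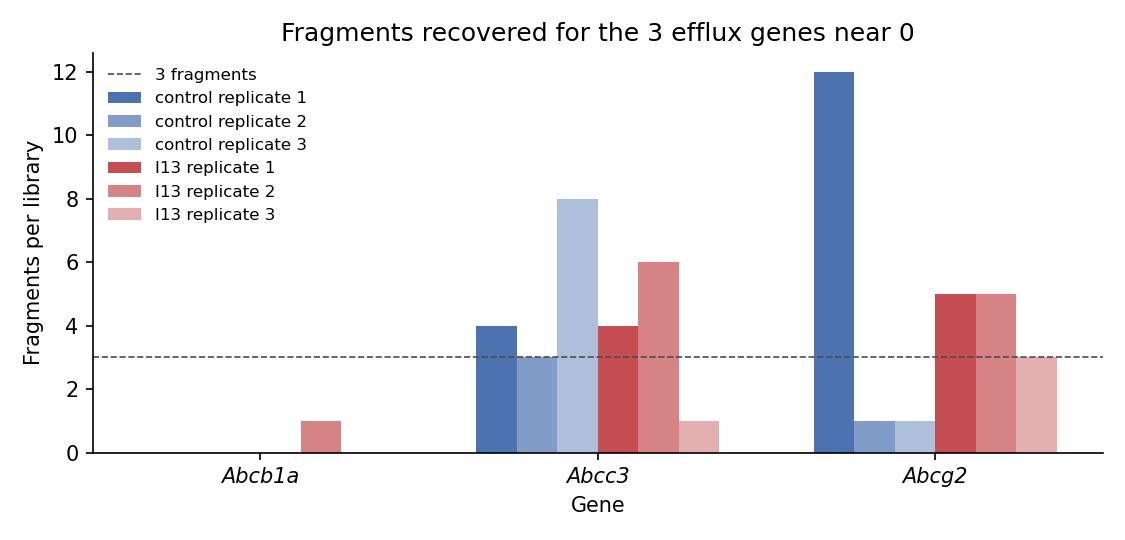
Fragments per library recovered for Abcb1a, Abcc3 and Abcg2, with control libraries in blue and I13 libraries in red. The dashed line marks 3 fragments, a rough upper limit of the expected count where 0 is seen. Control replicate 1 holds 12 of the 14 control fragments of Abcg2.

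The rest of the ABC family gave a background for these genes. Of 45 other ABC genes listed, 31 were in the table and 20 were tested. In the fit without the block 0 passed the adjusted p, while 5 of the 20 (25%) had an unadjusted p below 0.05, 1 higher and 4 lower after I13, against 18.6% of all genes tested. With voom on the recovered fragments, 0 passed the adjusted p and 7 (35%) had an unadjusted p below 0.05, against 19.4% of all genes tested. With the replicate block 9 of the 20 (45%), 2 higher and 7 lower, had an unadjusted p below 0.05, against 28% of all genes tested. In 7 of the 20 all I13 samples lay below all controls, as in 15.4% of all genes tested, and in 1 they lay above. The median log2 fold change of the 20 was -0.14. With the replicate block 1 passed both thresholds, in a fit where 1.89% of all genes tested did. This was Abca1, an exporter of cholesterol and phospholipid, which fell from 5.32, 9.36 and 2.70 FPKM in the control replicates to 2.09, 3.93 and 1.02 FPKM in the I13 replicates. The groups overlapped, but each I13 sample lay below its same-numbered control by a similar factor. The log2 fold change was -1.29, and limma gave an adjusted p of 0.275 unblocked and of 0.0308 blocked. The blocked call was lost in each of the 3 fits that left out 1 replicate number. Over all genes those fits called 83 without replicate 1 and 0 without replicate 2 or 3. Without replicate 2 or 3 no gene could keep its call.

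The nearest relatives of the drug exporters were named after their values were seen. Abcb4, the phosphatidylcholine exporter most like P-glycoprotein, had 5 fragments in the controls and 5 after I13. Abcc2, multidrug resistance protein 2, had control values of 4.13, 4.15 and 3.90 FPKM and I13 values of 3.48, 3.37 and 2.16 FPKM. All of its I13 samples lay below all of its controls, as they did in 15.4% of all genes tested. Its log2 fold change was -0.45, and limma gave an adjusted p of 0.268 unblocked and of 0.134 blocked.

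**Figure D5:**
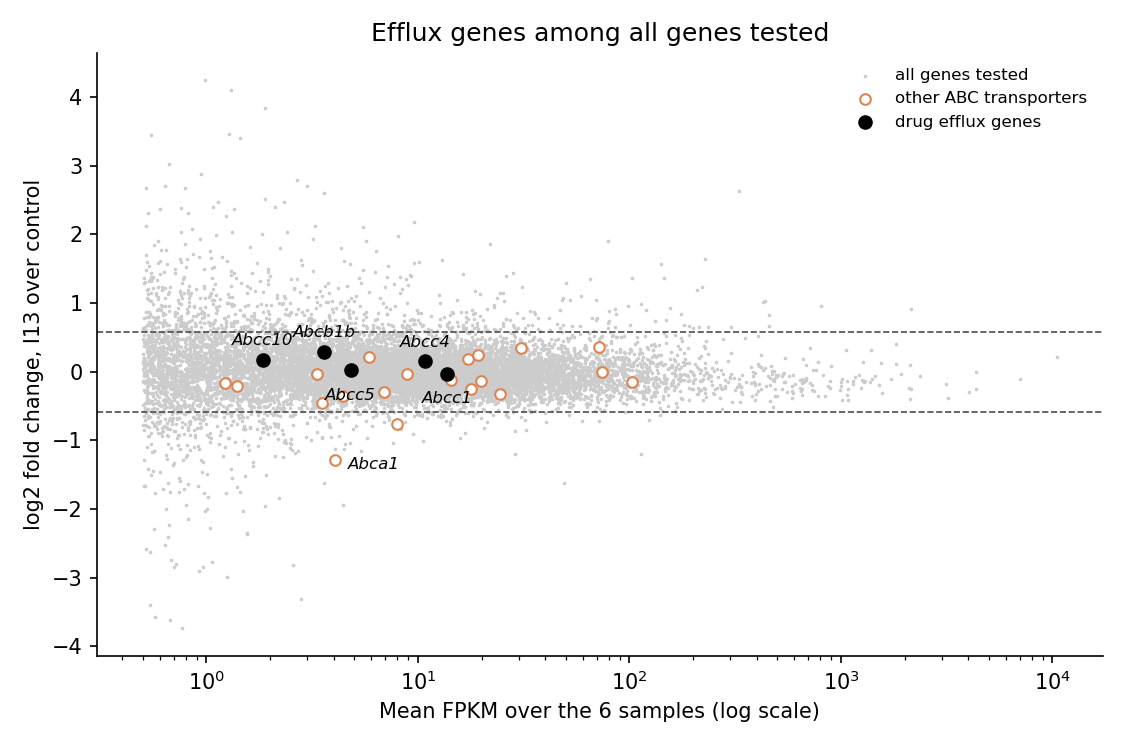
Log2 fold change of I13 over control against the mean FPKM over the 6 samples for the 12163 genes tested (grey), the 20 other ABC family genes tested (orange circles) and the 5 expressed drug efflux genes (black). The legend names the 20 other ABC transporters, although not all of them transport. Dashed lines mark 0.58 in either direction, and all 5 black points lie between them.

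Genes that act with the efflux transporters were counted from lists written by function, with earlier results of these data known. Of the drug uptake carriers 13 were tested, and 0 passed the adjusted p without the block in limma or voom. At an unadjusted p below 0.05 there was 1 (7.69%) in each, against 18.6% and 19.4% of all genes tested. That 1 carrier was Slc22a3, an uptake carrier of organic cations. Its control values of 2.11, 2.83 and 1.64 FPKM did not overlap its I13 values of 0.665, 0.613 and 0.538 FPKM. In limma it gave a log2 fold change of -1.67 ± 0.25 (standard error) at an adjusted p of 0.086, and in the blocked fit it fell at 0.0384. That call, in a fit where 1.89% of all genes passed both thresholds, was lost in each of the 3 blocked fits that left out 1 replicate number. Over all genes those fits called 83 without replicate 1 and 0 without replicate 2 or 3. The median log2 fold change of the carriers was 0.12.

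Glutathione and its conjugates are substrates of the ABCC exporters. Of 17 tested genes of glutathione synthesis and conjugation, 0 passed the adjusted p without the block in limma or voom. An unadjusted p below 0.05 was seen for 3 (17.6%) in limma and 2 (11.8%) in voom, against 18.6% and 19.4% of all genes tested. With the block 1 rose and 1 fell past both thresholds, in a fit where 1.36% of all genes rose and 0.526% fell past them. These calls too were lost whenever 1 replicate number was left out. Over all genes, 83 were called without replicate 1 and 0 without replicate 2 or 3. Mgst2, a microsomal glutathione transferase, fell from 4.10, 3.28 and 2.73 FPKM in the control replicates to 1.85, 1.71 and 1.22 FPKM in the I13 replicates, a log2 fold change of -1.04 (limma adjusted p 0.109 unblocked and 0.0384 blocked). Gsta2, a glutathione transferase, had control values of 0.0959, 0.0964 and 2.22 FPKM and I13 values of 0.916, 2.79 and 9.90 FPKM. The control values rested on 2, 2 and 46 fragments and the I13 values on 19, 55 and 204. A fold change from control values this low depends on the pseudocount. The groups overlapped, and the adjusted p was 0.257 without and 0.0401 with the block. It belongs to a family of similar copies, which makes its assignment of fragments uncertain. The median log2 fold change of these 17 genes was 0.15.

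Of the regulators of efflux genes 24 were tested, and 0 passed the adjusted p in limma with or without the block, with 5 (20.8%) at an unadjusted p below 0.05 without it in both limma and voom. Over all genes tested, those shares were 18.6% and 19.4%. The lowest unadjusted p values belonged to Rxrb, a partner of the nuclear receptors that act on transporter genes, to Hif1a, the oxygen-regulated factor, and to Trp53. Their log2 fold changes were -0.45, 0.42 and -0.34, with adjusted p from limma of 0.12, 0.124 and 0.127. With voom and the block 4 of the 24 passed the adjusted p, 2 in each direction, in a fit where 12.4% of all genes did. The median over the list was -0.10.

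Of the proteins that hold or carry transporters at the membrane 9 genes were tested, and 0 passed the adjusted p in limma with or without the block. In the fit without the block 8 of the 9 log2 fold changes were above 0, and 3 of the 9 (33.3%) had an unadjusted p below 0.05 in both limma and voom, against 18.6% and 19.4% of all genes tested. These were Rab11a, a regulator of recycling endosomes, Msn, which links membrane proteins to actin, and Pim1, a kinase. Their log2 fold changes were 0.35, 0.25 and 0.28, with adjusted p from limma of 0.137, 0.169 and 0.249. With the block 6 of the 9 (66.7%), all higher after I13, had an unadjusted p below 0.05, against 28% of all genes tested. That share was 45% for the other ABC genes and 33.3% for the regulators. For the glutathione genes it was 29.4% and for the uptake carriers 15.4%. With voom and the block 2 of the 9 passed the adjusted p, both higher after I13, against 12.4% of all genes. The median over the list was 0.22.

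The genes whose values followed an efflux gene most closely were listed for the most abundant member and for the one with the lowest unadjusted p. Over the 6 samples, the log2(FPKM + 0.1) values most like those of Abcc1 were those of H2afv, Gm25555 and Gm22858, with Pearson correlations of 0.988, 0.984 and 0.974. Those most like Abcb1b were Chordc1, Mtpap and Gm25604, with 0.993, 0.993 and 0.992. Correlations above 0.95 were seen for 8 genes with Abcc1 and for 112 genes with Abcb1b. These are the highest values over all genes tested, from 6 points that share library and depth, and they are given as a description only.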

How the data were processed

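The mRNA of 3 control and 3 I13-treated samples of BaF3-T315I cells was enriched with a stranded kit and sequenced. The authors deposited FPKM values, normalized to gene length and mapped fragments, with 1 column per sample and no scaling between samples stated. Per the labels, Trimmomatic, HISAT2, Cufflinks and HTSeq were among the tools, with no versions or roles, and the labels name a human genome build although the table lists mouse gene identifiers. The strand setting of the counting is not given in the sources used here, nor is the treatment of fragments that match several genes. Coordinates and sequences are not given, since a mouse reference was not used here. The number of per-sample columns without a sample was 0.

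For each gene, a length in whole bases was sought at which all 6 FPKM values equal whole fragments, within 1e-05 fragments plus 1e-07 of the number, which held for all 22413 genes. The shortest such length was taken, so that fragments are a minimum for genes above 0 in few libraries. Totals of 16762119 to 17722950 fragments per library set the precision of low genes.

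The 12163 genes averaging 0.5 FPKM or more were fitted with limma 3.58.1 (R 4.3.3, eBayes with trend) on log2(FPKM + 0.1), and the script was tested on simulated data. A call required both an absolute log2 fold change of 0.58 and a Benjamini-Hochberg p under 0.05. Exact intervals for low genes were computed with scipy 1.17.1 at a confidence level of 95%. The methods of the study name no test for the sequencing data. To check for pairing, deviations from the group means were correlated between groups, which gave 0.145, 0.301 and 0.219 for the same numbers and -0.258 to 0.0503 for different ones. Every same-numbered value exceeded 0.1, and on this check the replicate numbers of the labels were used as pairs. The labels state no pairs, and the check used the same values as the blocked fit. Deviations from a mean of 3 samples sum to 0, so these correlations also depend on each other. The check therefore cannot establish that same-numbered samples are pairs. The alternatives were other pseudocounts, filters and scalings, the block, voom and leaving out samples. The members and lists were chosen with earlier results of these data known. The genes named were the 8 members and, from each other list, up to 4 genes with an adjusted p below 0.05 with or without the block, or else the 3 with the lowest p. Abcb4 and Abcc2 were added after their values were seen. Some genes of the lists are not reported here by name.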

Additional observations from a re-analysis of the deposited data

How the results depend on the processing

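Across 18 alternatives, 0 of the 90 values of the 5 tested efflux genes passed an adjusted p of 0.05, and 83 kept their direction. The lowest adjusted p, 0.0802, was that of Abcb1b with voom and the replicate block, and the block changed no call of an efflux gene. The 7 values that turned direction were all close to 0. The log2 fold change of Abcc1 ran from -0.09 to 0.01 when 1 sample was left out, and it was 0.02 and 0.01 in the blocked fit without replicate 1 or replicate 3. That of Abcc5 ran from -0.08 to 0.08, and it was -0.03 and -0.04 in the blocked fit without replicate 1 or replicate 2. When 1 sample was left out Abcb1b ran from 0.20 to 0.46, Abcc4 from 0.06 to 0.25 and Abcc10 from 0.08 to 0.29, highest for all without I13 replicate 3. The Abcg2 ratio turned from 0.948 to 4.42 without control replicate 1. With no filter on low values the log2 fold changes of Abcb1a, Abcc3 and Abcg2 were 0.05, -0.13 and 0.03.

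Over all genes 5 were called. The number was 2 with a pseudocount of 0.01 and with median-ratio scaling, and 8 with no filter. It was 230 with the replicate block and 503 with voom and the block. It was 0 in all 6 fits that left out 1 sample, though 1478 to 2482 genes had p under 0.05 unadjusted. In the blocked fit it was 83 without replicate 1 and 0 without replicate 2 or 3, with 1638 and 3160 genes under 0.05 unadjusted. With the replicate block 1 other ABC gene, 1 uptake carrier and 2 glutathione genes were called, against 0 without it, and with voom and the block 2, 1 and 2. In the 3 blocked fits without replicate 1, 2 or 3 each of these lists had 0. The cause of these differences was not tested. Fits that leave samples out also hold fewer samples, and that part was not tested separately.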

Other observations

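Among the other ABC family genes, 5 of the 20 tested had an adjusted p below 0.05 in limma's voom with the replicate block. In that fit 12.4% of all genes tested did, and the ABC genes named here were chosen after their values were seen. Beside Abca1, the mitochondrial transporter Abcb8 had a mean of 10.1 FPKM in the controls and 5.90 after I13, and the peptide transporter subunit Tap2 of antigen presentation had 27.3 and 21.8 FPKM. Abce1, a ribosome recycling factor that transports nothing, had 62.6 and 80.6 FPKM. Their log2 fold changes without the block were -0.76, -0.33 and 0.36, and none of them had an adjusted p below 0.05 from limma in the fit without the block or with the block on the FPKM scale. For Abcb8 the adjusted p was 0.109 without the block, 0.0566 with it and 0.00948 with voom and the block.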
